A study of Rattus norvegicus with 32 samples.

Results

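The 37 genes of the rat mitochondrial genome were examined in RNA-seq libraries of 4 brain regions of adult male Sprague-Dawley rats. The members were the genes whose annotated chromosome in the count tables is the mitochondrial one, and they made up 37 of the 28914 genes listed there. METH (methamphetamine) rats received 10 mg/kg by intraperitoneal injection 4 times at intervals of 2 h, Sal rats received saline (1 mL/kg) on the same schedule, and the SVZ (subventricular zone), the NAc (nucleus accumbens), the DG (dentate gyrus of the hippocampus) and the CA (Ammon's horn of the hippocampus) were dissected the day after the last injection. Each region gave 4 Sal and 4 METH samples, 32 in all, and a sample is called by its region, its treatment and its number. Ribosomal RNA was depleted from the total RNA before library preparation. The labels do not say whether replicate numbers stand for separate animals, so the p-values below measure the spread between these samples only.

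The mitochondrial genome is a small circle present in many copies per cell. It is read from both strands into long precursor RNAs, which are cut mainly at the tRNAs that lie between the other genes, so that most of its mRNAs and both of its rRNAs come from shared precursors. Its mRNAs encode core subunits of the respiratory chain and of the ATP synthase. All other subunits, and the proteins that copy, transcribe and process the mitochondrial genome, are encoded in the nucleus. Neurons depend heavily on this machinery for the ATP that ion pumping and synaptic transmission consume.

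Of the 37 members, 13 encode proteins, 2 are the rRNA genes of the mitochondrial ribosome and 22 are tRNA genes of 60 to 75 bases. The tables name the RNA genes by number only. The rRNA genes were therefore recognised by length, as 12S rRNA (AY172581.9, 958 bases, mitochondrial positions 68 to 1025 of rn6) and 16S rRNA (AY172581.24, 1571 bases, positions 1094 to 2664), and the tRNA genes keep their numbers. The members on the minus strand number 9, namely 8 tRNA genes and Mt-nd6 (positions 13543 to 14061), while all other protein genes and both rRNA genes lie on the plus strand. There are 13 members that overlap another one, among them Mt-atp8 (7758 to 7961) and Mt-atp6 (7919 to 8599), which share 43 bases, Mt-nd4l (9870 to 10166) and Mt-nd4 (10160 to 11537), which share 7, and Mt-nd5 (11736 to 13565) and Mt-nd6, which share 23 on opposite strands. Fragments that touched 2 genes were left unassigned by the counting, and no strand option was set, so reads from a gene and from the opposite strand under it cannot be told apart in these counts.

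The rRNA genes had the highest levels. Levels are given as CPM (the count scaled to the total count of the sample) or, to compare genes, as CPM per kb of gene. The mean level per length over the 32 samples was 49055 for 16S rRNA and 26311 for 12S rRNA, although rRNA had been depleted. Among the protein genes the level per length was highest for Mt-co1, the catalytic subunit of cytochrome c oxidase (complex IV), at 9059, followed by Mt-atp6, the proton channel subunit of the ATP synthase, at 8654. Mt-co2 and Mt-co3, the other core subunits of complex IV, had 6948 and 5523, and Mt-cyb, cytochrome b of complex III, had 4553. As a ratio of highest to lowest, the subunits of complex I (NADH dehydrogenase) spread most widely. They had 4901 for Mt-nd1, 3980 for Mt-nd2, 2375 for Mt-nd4l, 2287 for Mt-nd5, 1439 for Mt-nd6 and 1061 for Mt-nd3. Mt-atp8, an accessory subunit of the ATP synthase, had 2893.

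Mt-nd4 stood apart from its neighbours. Its level per length was 99.2 on average and 24.1 to 242 across samples, although Mt-nd4l, which it overlaps on the same strand, had 1220 to 3905. The mean count of Mt-nd4 was 2157 per sample over 1378 bases, against 10726 over 297 bases for Mt-nd4l. The counting dropped reads with a mapping quality under 10, which removes reads that match several places. Whether this touched Mt-nd4 was not tested.

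**Figure D1:**
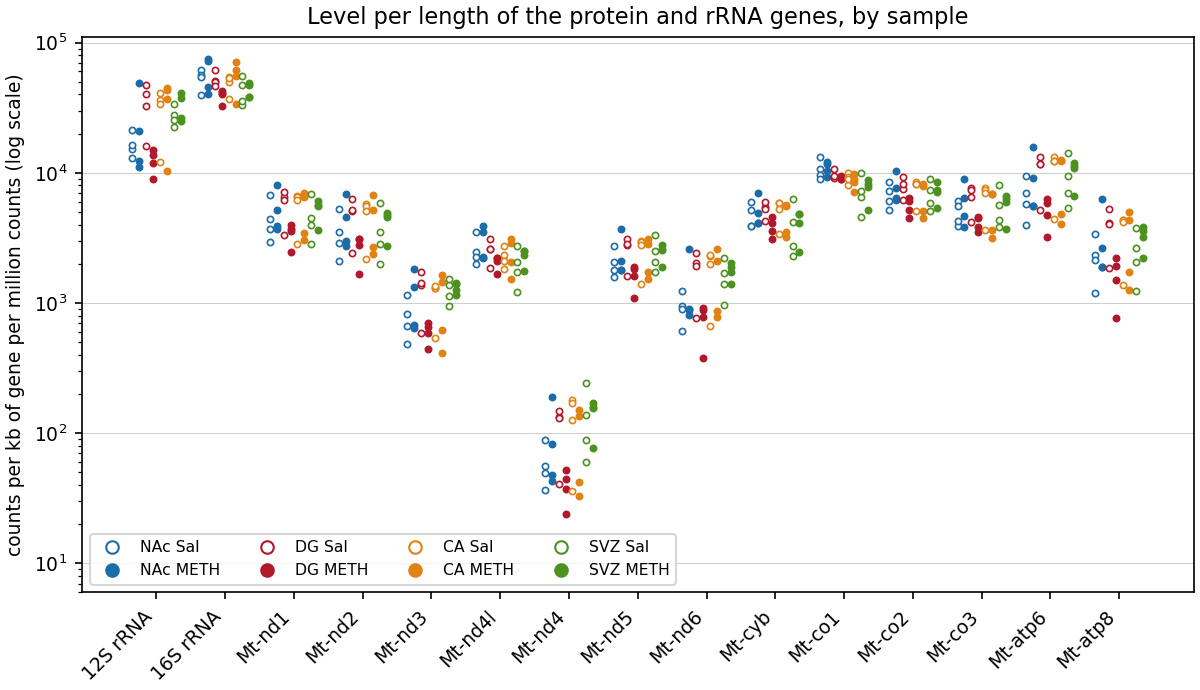
Level of the 2 rRNA and 13 protein genes in every sample, in CPM per kb of gene on a log scale, with open points for Sal and filled points for METH and 1 colour per region. Mt-nd4 lies at 24.1 to 242, below every sample of the other 14 genes.

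Few tRNA counts were recorded. Of the 22 tRNA genes, 3 had 0 counts in all 32 samples, 9 had a mean count under 10, and 6 had a mean count of 100 or more. Of those 6, 5 lie on the minus strand, opposite to most of the other genes. The most counted was AY172581.19 (6865 to 6933, minus strand), which overlaps the end of Mt-co1 on the opposite strand, with 1650 to 8364 counts per sample. It was followed by AY172581.20 (14062 to 14130, minus strand, beside Mt-nd6) with 353 to 2345 counts and AY172581.2 (15348 to 15415, minus strand) with 410 to 1097.

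The 37 genes together took 9.93% to 23.8% of all counts in a sample, with a median of 15.1%. The rRNA genes made up 60.3% to 81.7% of the mitochondrial counts, and the tRNA genes took at most 0.0899% of all counts. Libraries held 11094002 to 21869773 counts in total, so counting error is small beside the differences between samples for the protein and rRNA genes. For tRNA genes with few counts it can be as large as those differences. AY172581.8, AY172581.1 and AY172581.14, named below, had mean counts of 15.8, 27.25 and 46.3.

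Libraries of the same group differed in the run named in their file headers, and treatments were not spread evenly over runs. The headers do not say whether a run name marks sequencing, library preparation or both. In the NAc, Sal 1 and 2 carry the run name JJ_021819, Sal 3 and 4 and METH 1 and 2 carry Bo-RNA3, and METH 3 and 4 carry Bo-RNA2. In the DG, Sal 1, 2 and 4 carry Bo-RNA3, Sal 3 and METH 1 and 2 carry JJ_021819, and METH 3 and 4 carry Bo-RNA2. The headers mark CA Sal 1 and 2 as merged, while CA Sal 4 and METH 1 and 2 carry Bo-RNA3, and Sal 3 and METH 3 and 4 carry Bo-RNA2. The headers also hold library numbers. DG Sal 1 and 2 carry the numbers of METH samples of the NAc and CA, and DG METH 1 and 2 carry the numbers of Sal samples of those regions, so the mitochondrial share, the count of members and some fold changes of the DG are also given without these 4 libraries, and other DG values rest on all 8. SVZ METH 1 and 2 share a library number, as do METH 3 and 4, and all are treated below as separate samples. The chi-square per gene for the difference between 2 samples was 123.8 for SVZ METH 1 and 2 and 107 for METH 3 and 4. It was 15.37 to 134.4 for the other pairs of this group. What the shared numbers mean was not tested.

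Marker genes showed that the dissected tissue varied within groups. The summed level of 6 medium spiny neuron markers was 1175 to 5815 CPM in NAc Sal and 117 to 2676 in NAc METH. In the DG it was 133 to 1468 in Sal and 70.9 to 295 in METH, and all 6 markers were detected. The 4 dentate granule neuron markers summed to 125 to 295 in DG Sal and 141 to 607 in CA Sal, so these markers did not set the DG apart from the CA, and to 110.3 to 559 in DG METH. The 6 astrocyte markers, all detected, summed to 2558 to 3077 CPM in DG Sal and 3558 to 3746 in DG METH, and to 2448 to 2796 in NAc Sal and 2840.5 to 4538 in NAc METH, without overlap in either region. In the DG all 6 had a higher mean in METH, and 2 of them, Gfap and Aldh1l1, had an unadjusted p under 0.05 with edgeR, beside 6.35% of all genes in the higher direction. The 5 choroid plexus markers ranged from 1.49 to 2132 in DG Sal and from 9.97 to 6284 in DG METH. The part of these differences in the results below was not tested. In such tissue samples, fewer cells of a type and less RNA per cell cannot be told apart.

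The share of counts on mitochondrial genes was lower in every METH sample of the DG than in any Sal sample. It was 17.7%, 20.98%, 13.4% and 16.5% in DG Sal 1 to 4 and 12.2%, 12.4%, 9.93% and 10.8% in DG METH 1 to 4. The mean was 17.2% ± 3.14 in Sal and 11.3% ± 1.18 in METH (SD, n = 4 each), a ratio of 0.661. The lowest Sal value and the highest METH value were 13.4% and 12.4%, and the lowest Sal value belongs to the library that shares its run name with METH 1 and 2. Within that run the mean share was 13.4% in 1 Sal sample and 12.3% in 2 METH samples, a difference of -1.09 percentage points against -5.82 over all 8 samples. DG Sal 1 and 2, which carry header numbers of METH samples, had the highest shares, and whether the labels of these libraries are exchanged was not tested. Without them and METH 1 and 2, 2 samples a group remain and the ratio was 0.694. The remaining METH samples carry a run name that no remaining Sal sample carries, so treatment and run cannot be told apart there. The share is a sum over the chosen genes and was given no test. RF00002, an Rfam family of ribosomal RNA of the cytoplasmic ribosome, was also lower in DG METH without overlap. It had 110, 138, 66.7 and 93.7 CPM in DG Sal 1 to 4 and 29.8, 42.2, 23.5 and 52.1 in DG METH 1 to 4. The part of rRNA depletion or RNA quality in the share was not tested.

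In the other regions the shares of Sal and METH overlapped. In the NAc the share was 18.2%, 15.4%, 13.9% and 11.7% in Sal 1 to 4 and 23.8%, 19.4%, 12.8% and 11.8% in METH 1 to 4, with means of 14.8% ± 2.76 and 16.9% ± 5.70 (SD, n = 4 each). Within the run Bo-RNA3, the mean was 12.8% in 2 NAc Sal samples and 21.6% in 2 NAc METH samples, without overlap. In the CA it was 17.8%, 18.1%, 10.4% and 18.2% in Sal and 19.0%, 20.4%, 10.1% and 17.9% in METH. CA Sal 3 and CA METH 3, the lowest of each group, both carry the run name Bo-RNA2, as does CA METH 4 at 17.9%. In the SVZ, where all libraries form 1 set in the headers, it was 11.2%, 14.8%, 10.98% and 18.8% in Sal and 13.7%, 17.1%, 12.0% and 16.6% in METH. The ratio of the METH mean to the Sal mean was 1.14 in the NAc, 1.05 in the CA and 1.06 in the SVZ, and each difference was smaller than the SD of either group.

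**Figure D2:**
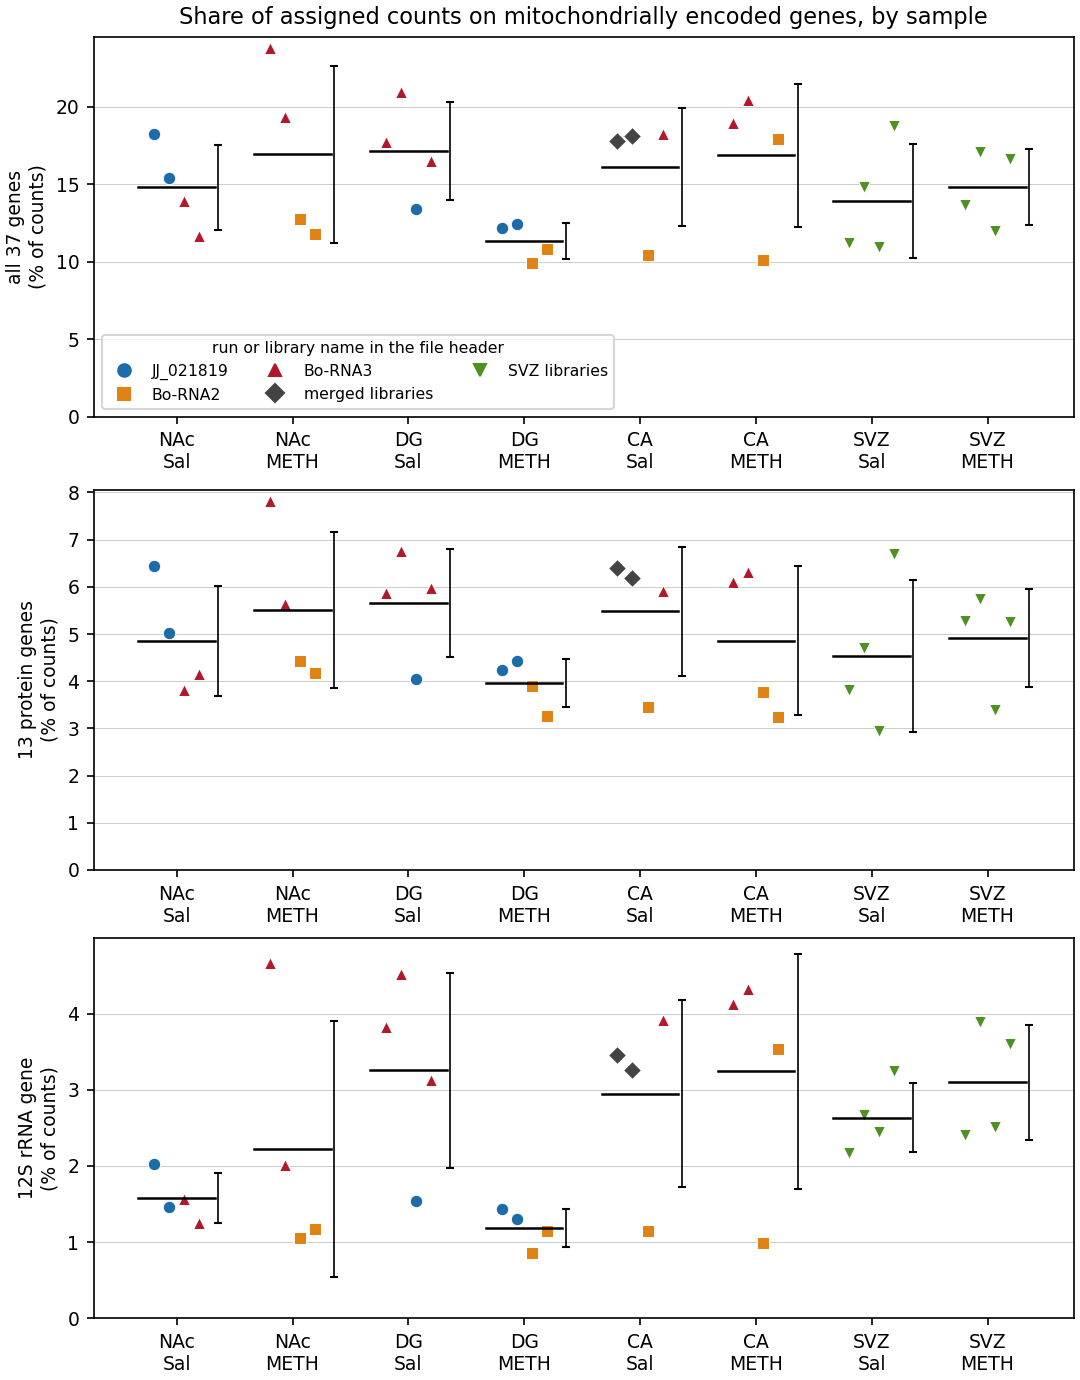
Share of assigned counts (%) on all 37 members, on the 13 protein genes and on 12S rRNA, with 1 point per sample, coloured and shaped by the run name in the file header, and the mean (bar) ± SD of 4 samples per group. The 4 DG METH samples lie at 9.93% to 12.4% for all members, below the 13.4% to 20.98% of DG Sal, and the DG Sal point nearest to them is Sal 3, which carries the run name of METH 1 and 2 but not of METH 3 and 4.

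METH was compared with Sal in the DG gene by gene, with edgeR's quasi-likelihood test. Of the 28 members that passed the filter on low counts, 21 had a lower mean in METH, and 14 of them had an unadjusted p under 0.05, all lower. This compares with 12.8% of all 14800 genes tested with such a p in either direction, and 6.42% in the lower direction. The 14 were 11 protein genes, 12S rRNA and 2 tRNA genes. No member passed the criterion of an adjusted p (FDR, Benjamini-Hochberg) under 0.01 and a fold change above 1.5, which 0 of the 14800 genes did, and the lowest FDR among the members was 0.212. The median log2 fold change was -0.48 over the 28 members and -0.01 over all genes. In counts scaled by the upper quartile, as the test uses them, groups did not overlap for 3 members, 12S rRNA, 16S rRNA and AY172581.2, each lower in METH, beside 3.39% of all genes. In CPM, AY172581.2 overlapped.

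12S rRNA had the smallest p of the members. It took 3.83%, 4.52%, 1.54% and 3.13% of all counts in DG Sal 1 to 4 and 1.43%, 1.30%, 0.859% and 1.14% in DG METH 1 to 4. The lowest Sal sample, Sal 3, lay just above the highest METH sample. The log2 fold change was -1.53 ± 0.40 (SE; edgeR FDR = 0.212). 16S rRNA, the larger of the ribosomal RNAs, took 7.995%, 9.62%, 7.76% and 7.34% in Sal and 6.48%, 6.62%, 5.13% and 6.36% in METH, also without overlap. Its log2 fold change was -0.46 ± 0.30 (edgeR FDR = 0.587). The rRNA genes lie on the same strand with 1 tRNA gene between them, and the difference between their fold changes was not tested.

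The 7 subunits of complex I all had a lower mean in DG METH, and 6 had a p under 0.05. The largest difference was that of Mt-nd4. Its level was 133, 147, 40.6 and 132 CPM per kb in DG Sal 1 to 4 and 44.8, 52.6, 37.4 and 24.1 in DG METH 1 to 4, so that Sal 3 lay among the METH samples. The log2 fold change was -1.58 ± 0.43 (SE; edgeR FDR = 0.219). Mt-nd3, another membrane subunit of complex I, also had Sal 3 among the METH samples. Its level per length was 1375, 1719, 591 and 1437 in Sal and 656, 708, 590 and 440 in METH, with a log2 fold change of -1.17 ± 0.34 (edgeR FDR = 0.240). The log2 fold changes were -0.82 for Mt-nd1, -0.90 for Mt-nd2, -0.74 for Mt-nd5 and -1.35 for Mt-nd6 (but -0.03 in the series matrix of counts), all with a p under 0.05, and -0.36 for Mt-nd4l (edgeR FDR = 0.515).

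The log2 fold changes of the ATP synthase subunits and of all subunits of complexes III and IV except Mt-co1 lay within the range of complex I, and no difference between complexes was tested. Mt-atp8 and Mt-atp6 had log2 fold changes of -1.33 ± 0.42 and -1.12 ± 0.36 (SE; edgeR FDR = 0.264 and 0.272). The level of Mt-atp8 was 4114, 5296, 1869 and 4022 CPM per kb in DG Sal and 1908, 2223, 1503 and 765 in DG METH, and Sal 3 again lay among the METH samples. Mt-cyb of complex III had -0.50. In complex IV, Mt-co3 had -0.71 and Mt-co2 had -0.54, both with a p under 0.05. Mt-co1 showed the smallest difference of the protein genes. Its level was 9234, 10611, 9171 and 9385 in Sal and 8953, 9451, 9184 and 9027 in METH, and the groups overlapped, with a log2 fold change of -0.12 ± 0.20 (edgeR FDR = 0.879). The 13 tRNA genes tested had a median of 0.01, and 2 of them, AY172581.15 (-0.64) and AY172581.2 (-0.23), had a p under 0.05.

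**Figure D3:**
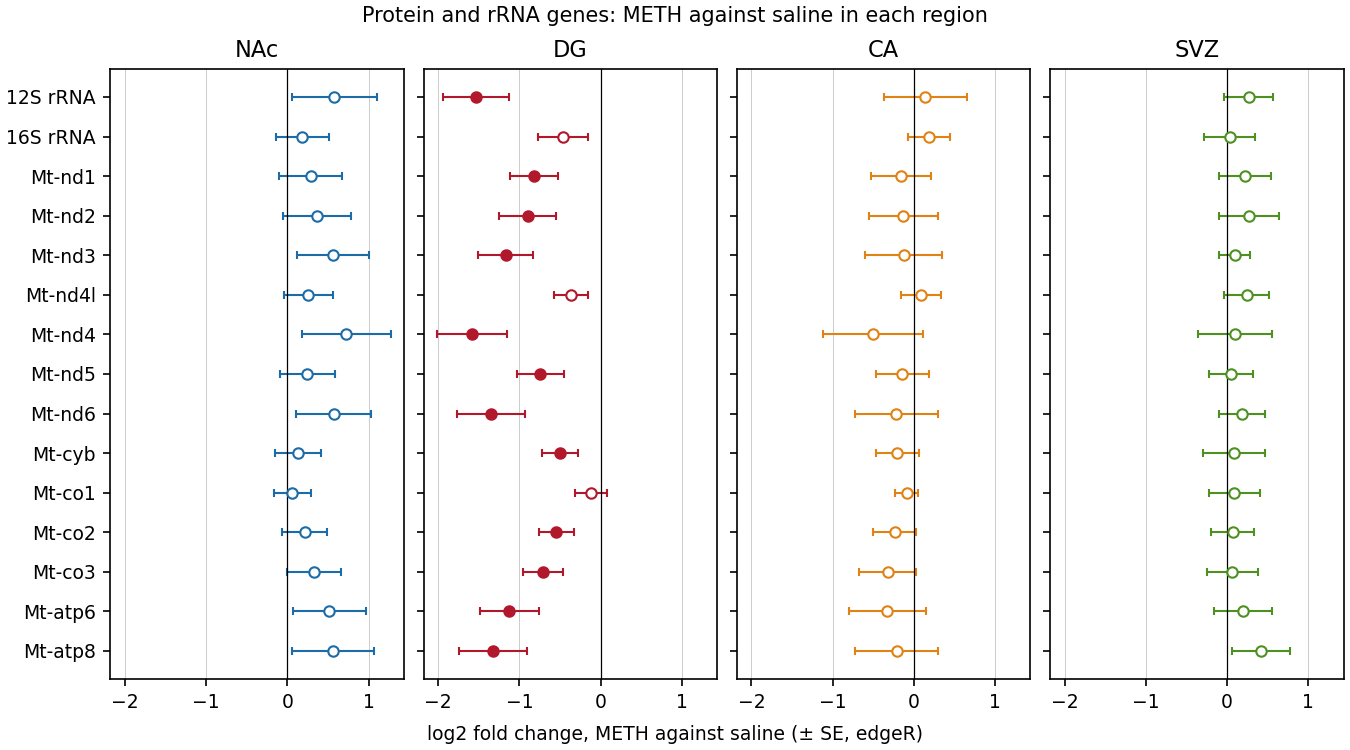
Log2 fold change of METH against Sal (± SE, edgeR) for the 15 protein and rRNA genes in each region, filled where the unadjusted p is under 0.05. In the DG all 15 points lie below 0 and 12 are filled, from -1.58 for Mt-nd4 to -0.12 for Mt-co1, and no point is filled in the other regions.

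The differences in the DG depended on covariates and on single libraries. The count of members with such a p was 6 with the RNA integrity number as a covariate, beside 13.5% of all genes, and 7 in 1 fit of 32 samples with 2 RUVr factors (factors of unwanted variation estimated from residuals), beside 21.7%. Without 1 sample at a time, 6 to 17 members had an unadjusted p under 0.05, beside 8.16% to 13.9% of all genes, with 8 without Sal 1, Sal 4 or METH 3 and 6 without Sal 2 or METH 4. With the run name as a covariate, the METH effect rests on the run JJ_021819, in which Sal 3 is the only Sal sample beside METH 1 and 2. The median log2 fold change of the 28 members was then 0.30, and 0 members had an unadjusted p under 0.05 (11% of all genes did). 12S rRNA was then at -0.08, Mt-nd4 at 0.36 ± 0.28 and Mt-nd3 at 0.30 ± 0.26 (SE; edgeR FDR = 0.711 and 0.747). Without Sal 1, Sal 2, METH 1 and METH 2, 1 of 28 members had such a p, beside 6.72% of all genes, and the log2 fold changes of Mt-nd4 and Mt-nd3 were -1.47 ± 0.66 and -0.96 ± 0.50. In the samples left, no run name is shared by Sal and METH, so treatment and run cannot be told apart. DESeq2 gave 16 members with a p under 0.05 and 1, 12S rRNA, past the criterion for a differentially expressed gene, beside 14.3% and 178 of all genes.

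**Figure D4:**
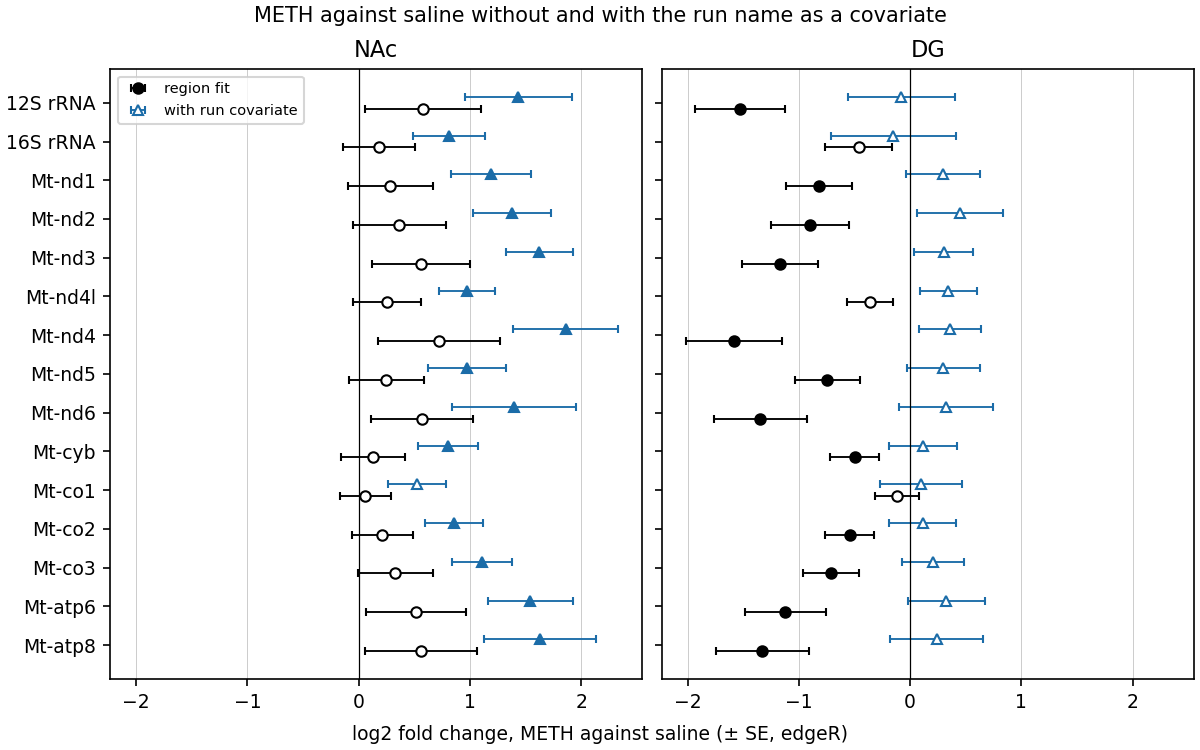
Log2 fold change of METH against Sal (± SE, edgeR) for the 15 protein and rRNA genes in the NAc and DG, without a covariate (black circles) and with the run name in the file header as a covariate (blue triangles), filled where the unadjusted p is under 0.05. With the covariate the DG points move to -0.15 to 0.45, none of them filled, and 14 of the 15 NAc points become filled.

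In the NAc, 26 of the 28 members tested had a higher mean in METH, with a median log2 fold change of 0.25 against 0.03 over all genes. With edgeR 0 members had an unadjusted p under 0.05, beside 3.39% of all genes, and DESeq2 gave 0 as well. The log2 fold change was highest for Mt-nd4 among the protein genes, at 0.72 ± 0.55 (SE), and lowest for Mt-co1, at 0.06 ± 0.23, and the edgeR FDR of every member was 0.999. The level of Mt-nd4 was 89.4, 56.1, 36.8 and 49.9 CPM per kb in NAc Sal 1 to 4 and 191, 83.2, 47.8 and 43.2 in NAc METH 1 to 4. METH 1 lay far above the others, and the remaining METH samples lay within the range of Sal. The 2 members with the smallest p were tRNA genes, AY172581.8 at 0.58 ± 0.27 and AY172581.20 at -0.39 ± 0.23 (SE). With the run name as a covariate, where the effect rests on Sal 3, Sal 4, METH 1 and METH 2, 20 of 28 members had a p under 0.05, all higher, with a median of 0.94, while 1.88% of all genes had one. The direction turned with the RNA integrity number as a covariate, where the median was -0.23 and 2 tRNA genes, AY172581.20 and AY172581.21, had a p under 0.05, both lower, beside 12.1% of all genes. Without METH 1 the median was -0.04.

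In the CA, 12 of the 13 protein genes had a lower and both rRNA genes a higher mean in METH, and with edgeR 0 of 27 members tested had a p under 0.05, beside 7.16% of all genes. The log2 fold change of the protein genes ran from -0.50 ± 0.62 (SE) for Mt-nd4 to 0.09 ± 0.24 for Mt-nd4l. The members with the smallest p were AY172581.14 (0.32 ± 0.18), AY172581.18 (0.26 ± 0.19) and Mt-co3 (-0.32 ± 0.35), with an edgeR FDR of at least 0.715. CA METH 4 combined the highest rRNA share of the region, 14.6% of all counts, with the lowest protein gene share, 3.25%. In the SVZ, 27 of 28 members had a higher mean in METH, with a median log2 fold change of 0.11 (-0.02 without Sal 3). Again 0 had a p under 0.05, beside 2.58% of all genes. There the protein genes ran from 0.05 ± 0.27 for Mt-nd5 to 0.42 ± 0.36 for Mt-atp8, which had one of the 3 smallest p beside AY172581.1 (-0.44 ± 0.29) and AY172581.20 (0.22 ± 0.24), each with an edgeR FDR of 0.979. DESeq2 gave 0 members with such a p in either region.

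A METH effect shared by the 4 regions was tested in 1 fit of the 32 samples. With edgeR 0 of 30 members had an unadjusted p under 0.05, and DESeq2 gave 0 as well, beside 7.45% of all genes, and 12 of the 13 protein genes had a shared log2 fold change below 0, with a median of -0.13. They ran from -0.31 ± 0.33 (SE) for Mt-nd4 to 0.05 ± 0.14 for Mt-nd4l. The smallest p were those of AY172581.18 (0.14 ± 0.11), AY172581.14 (0.15 ± 0.13) and AY172581.10 (0.10 ± 0.09), with an edgeR FDR of at least 0.775. A METH effect that differed between the regions was tested as the interaction of region and treatment. It had an unadjusted p under 0.05 for 2 members, AY172581.3 (edgeR FDR = 0.548) and 12S rRNA (edgeR FDR = 0.553), beside 7.74% of all genes. AY172581.3 (1026 to 1093), the tRNA gene between the rRNA genes, had 1 to 41 counts per sample. The next smallest p was that of Mt-nd6 (edgeR FDR = 0.655). With the replicate number as a block, 7 members had such a p for the difference, beside 7.25% of all genes, while 0 had one with the run name as a covariate or without the 4 DG libraries with conflicting header numbers. These fits treat the samples of different regions as independent, although regions may come from the same animal.

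Mt-nd6 and several tRNA genes had different counts in the count matrix of the whole series, which holds 14714 genes and 26 of the members. For the protein and rRNA genes on the plus strand, the matrix count was 76.8% to 106% of the count in the tables of the single samples, with Mt-nd5 the lowest. For Mt-nd6 it was 21.1% to 91.1%, with a median of 47.2%. For the minus-strand tRNA genes AY172581.19, AY172581.20 and AY172581.2 the median was 3.15%, 0.939% and 13.1%. The tRNA genes with fewer counts went either way, with 156% for AY172581.21 on the minus strand and 251% for AY172581.12 and 71.2% for AY172581.1 on the plus strand. The matrix uses gene names of the Ensembl annotation in the headers of the single tables, while the methods of the study name a UCSC annotation. The methods list counting options that include no strand option, but do not say which of the count files they made. Which annotation and which strand setting the matrix was counted with is not given in the sources used here.

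The comparison of treatments changed with the table for Mt-nd6. Its level in the single-sample tables was 1053, 1265, 400 and 1002 CPM in DG Sal 1 to 4 and 479, 458, 405 and 196 in DG METH 1 to 4, a log2 fold change of -1.35 ± 0.42 (SE; edgeR FDR = 0.263). In the matrix the same samples had 274, 285, 310 and 296 in Sal and 363, 316, 318 and 176 CPM in METH, a log2 fold change of -0.03 ± 0.20 (edgeR FDR = 0.975). Over all 32 samples Mt-nd6 ranged from 196 to 1361 CPM in the single-sample tables and from 176 to 401 in the matrix. For Mt-nd4 and Mt-nd3, on the plus strand, the DG log2 fold changes in the matrix were -1.59 and -1.20.

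**Figure D5:**
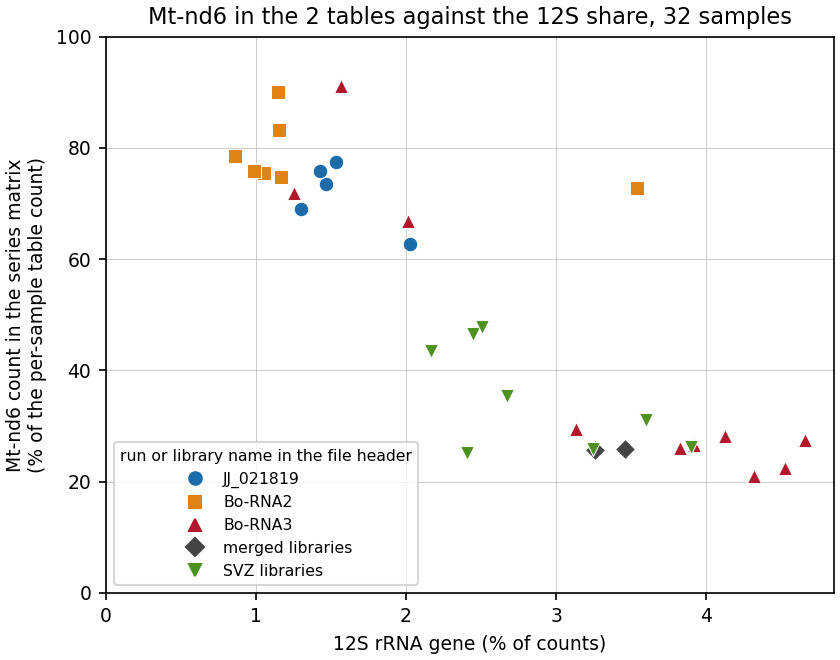
Mt-nd6 count in the series matrix as a percentage of its count in the single-sample table, against the share of all counts on 12S rRNA (%), with 1 point per sample, coloured and shaped by the run name. Samples with 12S rRNA at up to 2.03% lie at 62.7% to 91.1%, and those above it lie at up to 47.7% apart from CA METH 4 at 72.8%.

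Apart from CA METH 4, with 72.8% kept at 3.54% of counts on 12S rRNA, the samples in which the matrix held most of the Mt-nd6 count were those with little 12S rRNA. The share of all counts on 12S rRNA and the percentage of Mt-nd6 kept in the matrix had a Pearson r of -0.87 over the 32 samples, as a description of samples that share groups and runs. The ratio of 12S rRNA to 16S rRNA counts fell into 2 ranges, 0.146 to 0.220 in 14 samples and 0.319 to 0.527 in 18. In the lower range were all 5 samples of the run JJ_021819, 6 of 7 of Bo-RNA2 and 3 of 10 of Bo-RNA3, and none of the 8 SVZ samples or the 2 merged CA libraries. By group it held all 4 NAc Sal and all 4 DG METH samples, 3 of NAc METH, and 1 each of DG Sal, CA Sal and CA METH. Mt-co1 made up 31.98% to 42.7% of the protein gene counts in the lower range and 21.9% to 33.7% in the upper. DG Sal 3 lay in the same range as the 4 DG METH samples. The part of the runs in this was not tested.

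The saline samples of the 4 regions were compared in pairs, in 1 fit of 16 samples with 29 members tested. Run names were spread unevenly over these regions, and the run was not used as a covariate here. Of the CA Sal samples, only CA Sal 4 carries a run name that NAc Sal samples also carry. The parts of region and run in these differences therefore cannot be fully told apart. With edgeR 0 members passed an FDR of 0.01 with a fold change above 1.5 in any pair, beside 0.0258% of all genes between DG and SVZ, 1.28% between CA and SVZ and 0% in the other pairs. DESeq2 gave 1 member past this criterion between NAc and CA (AY172581.3, beside 724 of all genes) and AY172581.10 alone in each pair with the SVZ (beside 74 of all genes for the NAc, 165 for the DG and 1184 for the CA). In the NAc 3 members were lower than in the DG at an unadjusted p under 0.05 with edgeR, beside 11.5% of all genes (6.32% lower in the NAc), namely 12S rRNA (log2 difference -1.09 ± 0.40 SE), Mt-nd6 (-1.01 ± 0.44) and AY172581.3 (-3.06 ± 0.78). The protein genes ran from that of Mt-nd6 to 0.13 ± 0.24 for Mt-co1. The difference of Mt-nd6 was 0.22 in the series matrix. Without the DG libraries with conflicting header numbers, 0 members had such a p with edgeR, beside 6.71% of all genes, and the median went from -0.17 to 0.01. The replicate number as a block gave 7 members, all lower in the NAc, beside 11.5% of all genes. The count was 1 without DG Sal 2, beside 8.2%, and 9 (7 lower) without DG Sal 3, beside 20.8%. Between NAc and CA 6 members had such a p, beside 24.1% of all genes (10.5% lower and 13.6% higher in the NAc). Lower in the NAc were 12S rRNA (-0.99), Mt-nd4 (-1.22), Mt-nd6 (-1.08) and AY172581.3 (-3.12, FDR = 0.0385), and higher were AY172581.20 (1.24) and AY172581.18 (0.54). The highest difference of a protein gene was 0.17 ± 0.24 (SE) for Mt-co1. The difference of Mt-nd6 was 0.13 in the series matrix. With the replicate number as a block, 9 members had such a p (2 higher and 7 lower), beside 24.4% of all genes. With library sizes of nuclear genes there were 8, of which 5 were higher in the NAc and 3 lower, beside 25.1%. Without 1 sample at a time the count was 3 without NAc Sal 2, CA Sal 1 or CA Sal 4 and 11 without CA Sal 3, and the lowest edgeR FDR of a member was 0.0558 to 0.115. AY172581.3 rests on few reads, with 1 to 4 counts in NAc Sal and 6 to 26 in CA Sal. Between DG and CA, the neighbouring hippocampal regions, 0 members had such a p with edgeR, beside 8.93% of all genes, and the protein genes differed by -0.22 ± 0.55 (SE, Mt-nd4) to 0.15 ± 0.39 (Mt-nd3) on the log2 scale. The smallest p were those of AY172581.2 (0.40 ± 0.22), AY172581.18 (0.31 ± 0.18) and AY172581.20 (0.49 ± 0.37), with an edgeR FDR of at least 0.594. DESeq2 also gave 0.

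All members but Mt-co1 that differed between the SVZ and another region at this p were tRNA genes. Between NAc and SVZ, 8 members had an unadjusted p under 0.05 with edgeR, beside 12.6% of all genes (4.16% higher in the NAc), and 7 were higher in the NAc. These were 6 tRNA genes, among them AY172581.20 (1.22 ± 0.38 SE, edgeR FDR = 0.210), and Mt-co1, whose log2 difference was 0.62 ± 0.24 (SE; edgeR FDR = 0.305). AY172581.3 was lower (-3.07 ± 0.77 SE, edgeR FDR = 0.129), and among the protein genes Mt-nd4 had the lowest difference, -1.15 ± 0.56. The split did not hold without NAc Sal 1, with 2 higher and 3 lower and a median over the members of -0.03 against 0.25. The series matrix gave 2 higher and 2 lower and a median of -0.01, but over 26 members tested instead of 29. AY172581.10, higher in the NAc, was not among the members compared between the matrix and the single-sample tables. The change in the matrix may therefore be partly a change of members. AY172581.10 (5185 to 5252, minus strand) had the smallest p. Its counts were 388, 394, 279 and 292 in NAc Sal and 331, 249, 201 and 224 in SVZ Sal, in libraries of the SVZ that were deeper, and its level was 376 ± 29.2 and 188 ± 33.1 CPM per kb (SD, n = 4 each). The log2 difference was 1.02 ± 0.16 (SE; edgeR FDR = 0.0235). It was also higher in the CA than in the SVZ, by 0.73 ± 0.16 (edgeR FDR = 0.0137), the 1 member of that pair with a p under 0.05, beside 31.6% of all genes (12.3% higher in the CA), and in the DG, by 0.81 ± 0.16 (edgeR FDR = 0.0737). The next smallest p between CA and SVZ were those of Mt-co1 (0.45 ± 0.24) and AY172581.22 (0.56 ± 0.31), and the protein genes ran from -0.03 ± 0.39 for Mt-nd3 to 0.66 ± 0.47 for Mt-atp8. In the DG against the SVZ a further tRNA gene, AY172581.19, was higher by 0.84 ± 0.37, beside 17.6% of all genes (7.93% higher in the DG), and this difference was -0.50 in the series matrix. Mt-co1 was next in p, at 0.49 ± 0.24, and the protein genes ran from -0.15 ± 0.55 for Mt-nd4 to 0.72 ± 0.47 for Mt-atp8. All SVZ libraries form a set of their own in the headers, so region and run cannot be told apart for these differences.

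Nuclear genes that work with the members were counted in the same comparison of METH with Sal. In the DG, where 14 members and 12.8% of all genes had an unadjusted p under 0.05, such a p was found for 1 of 34 nuclear complex I subunits (Ndufa6, log2 fold change -0.23), 0 of 9 complex III subunits, 1 of 11 complex IV subunits (Cox6a1, -0.34) and 0 of 14 ATP synthase subunits. The medians of these 4 lists were -0.07, 0.07, 0.01 and -0.00, against -0.01 over all genes. Among 20 genes of mitochondrial transcription and replication it was found for Ppargc1a (-0.44), the coactivator known for its part in forming mitochondria. Among 26 genes of mitochondrial RNA processing and stability it was found for Mrm3 (-0.41), which methylates 16S rRNA, and among 13 of mitochondrial translation for none. The summed level of the nuclear complex I subunits was 1813 to 1992 CPM in DG Sal and 1661 to 1948 in DG METH, with overlap, and the groups also overlapped for each of the 7 mitochondrial complex I subunits. The edgeR FDR was 0.254 for Ppargc1a, 0.324 for Ndufa6, 0.332 for Cox6a1 and 0.338 for Mrm3.

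In the other regions such a p was found for 1 to 3 genes of a list or for none. In the NAc, where 3.39% of all genes had one, there were 3 of 25 genes of mitochondrial RNA processing, all higher, among them Pus1 (log2 fold change 0.41), a pseudouridine synthase, and Elac2 (0.21), which cuts the 3′ ends of mitochondrial tRNAs, and 1 of 9 complex III subunits, Uqcrh (0.22). In the CA, beside 7.16% of all genes, there were 2 of 20 genes of transcription and replication, both lower, Tfb1m (-0.24), which methylates 12S rRNA, and Ssbp1 (-0.46), which binds single-stranded mitochondrial DNA. In the SVZ, beside 2.58% of all genes, there was 1 of 13 translation genes, the initiation factor Mtif2 (-0.26). The edgeR FDR of these genes was 0.999 in the NAc, 0.686 for Tfb1m and 0.688 for Ssbp1 in the CA, and 0.979 in the SVZ.

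Within groups the members moved together but not to the same extent. The SD of the log2 level around the group mean was 0.84 for Mt-nd4, 0.72 for Mt-atp8, 0.67 for Mt-nd6 and 0.66 for 12S rRNA, and 0.31 for 16S rRNA and 0.25 for Mt-co1. Mt-nd4 and Mt-co1, the ends of this order among the protein and rRNA genes, also had the largest and the smallest fold change in the DG. The deviation of a protein or rRNA gene had a Pearson r of 0.62 to 0.86 with that of the other members summed, over 32 samples. The tRNA genes ranged from -0.10 for AY172581.20 to 0.72 for AY172581.15.

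Nuclear genes were ranked by how closely their deviations from the group means followed those of the summed members, over 32 samples and 9810 genes with a mean above 10 CPM. The highest r was that of RF00002 (0.78), an Rfam family of ribosomal RNA of the cytoplasmic ribosome, followed by Hypk (0.70), Nsrp1 (0.68), a splicing factor, LOC108351137 (0.64) and RF00554 (0.60). The lowest were those of Gcn1 (-0.87), which acts in the amino acid starvation response, Cyhr1 (-0.87), Ncln (-0.86), Crk (-0.85) and Dhx30 (-0.84). The median r was -0.33, and 2220 genes had an r under -0.5 against 16 over 0.5. All these levels are shares of the same total, so a sample with more mitochondrial counts has fewer left for other genes.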

How the data were processed

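RNA-seq counts of 32 samples were analysed. The authors trimmed reads with cutadapt 2.7, checked them with FastQC 0.11.4, mapped them to rn6 with STAR 2.5.2b and deposited raw counts per gene for each sample, made with featureCounts 1.6.3 on an Ensembl annotation, per the file headers without a strand option and with a mapping quality of at least 10. A deposited count matrix of the series was used as an alternative. Counts were tested with edgeR 4.0.16 (limma 3.58.1, R 4.3.3) by the quasi-likelihood test after upper-quartile normalization and filterByExpr, within each region for METH against Sal, in the 16 saline samples for pairs of regions, and in all 32 samples for shared and differing effects. P-values were adjusted by Benjamini-Hochberg over all genes tested. CPM scale counts to the total count of a sample, and levels per kb divide CPM by gene length. DESeq2 1.42.0, Python 3.11.15, numpy 2.4.6, pandas 2.3.3 and matplotlib 3.10.9 were also used. The tests were tried on simulated counts with known fold changes. At the group size used here, the smaller of the simulated fold changes were called only in part. The simulated spread was smaller than that estimated in the NAc, DG and SVZ. A count of 0 members therefore does not show that none changed.

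The members, the nuclear gene lists and the tests were chosen with earlier results of these data known. Named with their statistics are the 3 members with the smallest p and the protein genes with the highest and lowest fold change in each comparison, the 2 genes with the smallest p of each nuclear list (the fixed rule; those with a p of 0.05 or more are only counted here), and the 5 nuclear genes with the highest and the lowest likeness. AY172581.2 and AY172581.15 in the DG and other members outside this rule were added after their values were seen. Replicate numbers of NAc and CA match in the library numbers of the headers, for Sal and METH. The deviations of the pairs of NAc Sal and CA Sal correlated at 0.116 to 0.249, and those of NAc METH and CA METH at -0.12 to 0.231. In every other pair of groups compared the lowest correlation was under 0.1. Whether a number marks an animal is not given in the sources used here, and fits over several regions treat samples as independent. The RNA integrity number used as a covariate comes from the supplement of the study. No pair of replicates agreed within sampling noise, as checked with a chi-square test over genes.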

Additional observations from a re-analysis of the deposited data

Results flagged for a closer look

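In 152 sets of 4 samples (a level or a share in a group), 13 had 1 sample whose gap to its nearest neighbour exceeded Dixon's 95% limit as a share of the range. Chance gives about 1 in 20 sets, and the sets share samples. Of the 13, 8 concern CA Sal 3. Its mitochondrial share was 10.4% against 17.8% to 18.2% in the other CA Sal samples, and its protein gene share was 3.45% against 5.90% to 6.40%. In CPM per kb it had 2856 for Mt-nd1 against 6166 to 6665, 5077 for Mt-co2 against 8178 to 8537, 1381 for Mt-atp8 against 4188 to 4334, 4382 for Mt-atp6 against 12264 to 13176, 540 for Mt-nd3 against 1300 to 1343, and 1406 for Mt-nd5 against 2814 to 2983.

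On the same scale, SVZ METH 3 had 2762 for Mt-nd2 against 4582 to 4879 in the rest of its group, and 77.2 for Mt-nd4 against 155 to 171. DG Sal 3 had 40.6 for Mt-nd4 against 132 to 147. DG Sal 2 had 10611 for Mt-co1 against 9171 to 9385. NAc METH 1 had 2622 for Mt-nd6 against 810 to 905.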

How the results depend on the processing

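Each comparison was repeated under up to 11 other settings, and its count of members at an unadjusted p under 0.05 is compared here. In the NAc, METH against Sal went from 0 to 1 without a filter on low counts, to 2, both lower, with the RNA integrity number as a covariate, to 1 with the replicate block, to 20 with the run as a covariate, and to 1 in 1 fit of 32 samples, with or without 2 RUVr factors. In the DG, 14 became 6 with the integrity number, 0 with the run, 7 with RUVr factors and 1 without Sal 1, Sal 2, METH 1 and METH 2. In the CA, 0 became 1 with the run. With the run as a covariate the log2 fold change in the DG was 0.36 for Mt-nd4 and 0.30 for Mt-nd3, against -1.58 and -1.17. For NAc against DG, 3 became 1 with the integrity number, 7 with the replicate block and 0 without the 4 DG libraries, and Mt-nd6 was at 0.22 in the series matrix. For NAc against SVZ, 8 (7 higher) became 4 (2 higher) in the matrix, which tested 26 members instead of 29. For DG against CA, 0 became 1 with nuclear library sizes or without those DG libraries. For DG against SVZ, 2 became 4 with TMM, no filter or DESeq2, 1 with the integrity number, 6 with the replicate block and 0 in the matrix, where AY172581.19 was at -0.50. AY172581.10, the other of the 2, was not among the members compared between the matrix and the single-sample tables. Whether the matrix holds AY172581.10 is not shown here, so its loss there cannot be read as a test. For CA against SVZ, 1 became 2 without a filter or with DESeq2 and 3 with the block. For the difference between regions, 2 became 5 with nuclear library sizes, 7 with the block, 0 with the run or without the 4 DG libraries, and 6 with DESeq2. Where it is given above, the share of all genes with such a p changed between settings as well. These counts alone are therefore not a result about the members. The causes were not tested.

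Without 1 sample at a time the counts were 0 to 1 in the NAc, 6 to 17 in the DG and 0 to 0 in the CA and SVZ for METH against Sal. They were 1 to 9 for NAc against DG, 3 to 11 for NAc against CA, 5 to 10 for NAc against SVZ, 0 to 1 for DG against CA, 1 to 5 for DG against SVZ, 1 to 4 for CA against SVZ, 0 to 1 for the shared effect and 0 to 7 for the difference between regions. For METH in the DG and for NAc against DG, the share of all genes moved as well, as given above. These ranges alone are therefore not a result about the members. The log2 ratio of the mitochondrial share was -0.02 to 0.33 in the NAc, -0.70 to -0.49 in the DG, -0.10 to 0.24 in the CA and -0.01 to 0.27 in the SVZ. Of the values of named members under the other settings, 400 were classed as the same, 13 gained and 14 lost a p under 0.05, and 4 reversed, as given above. Changes of sign among values with a p of 0.05 or more were not counted here. For NAc against CA in saline, where every numbered pair correlated above 0.1, 6 (2 higher) became 9 with the block and 8 (5 higher) with nuclear library sizes. Counting error is largest for the tRNA genes, of which 9 had a mean count under 10.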
